A study of Homo sapiens with 9 samples.

Results

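Transcribed stretches of the genome that carry no gene name were described here in A549 cells, a human lung adenocarcinoma line, with and without a trigger of ferroptosis. The deposited table lists 43444 assembled loci, of which 1496 have no gene name. The members were the unnamed loci with an FPKM (fragments per kilobase of transcript, scaled for depth) of at least 1 in 3 or more of the 9 libraries, and 708 loci met this rule. Of the named loci, 17297 met it too, so that 18005 loci were tested in all.

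Each of the 3 groups had 3 libraries of total RNA from cells taken at 24 h. The groups were RSL3 at 2 µM together with Fer-1 at 5 µM, RSL3 at 2 µM alone, and the vehicle DMSO. RSL3 inactivates GPX4, the enzyme that repairs peroxidised membrane lipids, and so starts ferroptosis. Fer-1 (ferrostatin-1) traps lipid radicals and blocks that death. All groups are 1 cell line. Whether replicate libraries stem from different cultures is not labelled, so p-values measure the spread between these libraries only. Library totals ran from 39143521 to 45855255 estimated counts. Of 5 epithelial markers, KRT8, KRT18 and KRT7 passed the filter with a summed FPKM of 256.0 to 294.1 over the list, CDH1 did not pass and EPCAM was not found under that symbol.

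An assembler joins aligned reads into transcripts and gives a locus its own number where the overlap with the annotation yields no name. Such loci are commonly read-through past the end of a gene, antisense transcripts, RNA from enhancers, genes annotated only in other catalogues, or stray fragments of introns and repeats. A spliced transcript shows its strand at the splice sites, while an unspliced one shows none unless the library keeps it. Transfer RNA genes are short and transcribed by RNA polymerase III, and long RNA-seq libraries capture their products poorly.

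Where a member covered all or part of a promoter window or a miRNA gene of RefSeq (GRCh38.p14), the reference sequence of that feature can be printed. Such an overlap does not identify the member's own transcript. A promoter window runs from 250 bases before to 50 after an annotated start. Of the members singled out below, 3 with a called change and a covered window were chosen for display, together with the miRNA inside the member of highest FPKM. MSTRG.9678 contains the whole window of the long noncoding RNA LOC105369949 on chr12:104376869-104377168, plus strand. MSTRG.35176 contains the whole window of ANKRD18B on chr9:33524001-33524300, plus strand, but lies on the opposite strand. In these windows the capitals mark a GC box (GGGCGG) or a TATA box (TATAAA). MSTRG.22483 shares its strand with LOC105372621 and covers 42 bases of the window on chr20:41005425-41005724, minus strand, from position 259 to 300, which are in capitals. The mature miRNAs of MIR10396A lie on chr21:8987617-8987635 and chr21:8987645-8987665, plus strand, inside MSTRG.22878, which is assigned to the opposite strand, and their seeds are in capitals.
LOC105369949: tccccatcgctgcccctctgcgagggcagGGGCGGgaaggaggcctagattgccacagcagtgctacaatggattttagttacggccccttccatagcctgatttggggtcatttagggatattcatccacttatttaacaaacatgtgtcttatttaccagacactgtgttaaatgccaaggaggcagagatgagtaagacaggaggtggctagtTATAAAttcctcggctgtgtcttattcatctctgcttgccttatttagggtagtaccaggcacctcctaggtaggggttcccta
ANKRD18B: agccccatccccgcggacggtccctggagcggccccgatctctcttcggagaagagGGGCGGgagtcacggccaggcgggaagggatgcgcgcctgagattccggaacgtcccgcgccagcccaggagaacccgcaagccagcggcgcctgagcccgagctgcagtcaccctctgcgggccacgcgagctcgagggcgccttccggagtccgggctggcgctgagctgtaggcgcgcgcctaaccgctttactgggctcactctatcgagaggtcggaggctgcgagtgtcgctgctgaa
LOC105372621: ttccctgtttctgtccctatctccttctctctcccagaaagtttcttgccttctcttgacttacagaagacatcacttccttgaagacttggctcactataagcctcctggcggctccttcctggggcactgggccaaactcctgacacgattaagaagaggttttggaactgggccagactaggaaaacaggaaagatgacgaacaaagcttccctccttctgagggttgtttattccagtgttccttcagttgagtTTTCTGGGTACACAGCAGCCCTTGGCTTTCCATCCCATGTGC
hsa-miR-10396a-5p: gGCGGGGCucggagccggg
hsa-miR-10396a-3p: gGCCCCGGgcccucgaccggg

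Both strands of the 3 windows were searched for 5 motifs, and overlapping matches were counted. The TATA box occurred at position 217 of the LOC105369949 window and in 11.5% of the 35116 promoter windows. The GC box occurred at position 30 of that window and at position 57 of the ANKRD18B window, against 45.0% of all windows. The letters of the CCAAT box (CCAAT, 34.6% of windows), the antioxidant response element (TGACNNNGC, 13.3%) and the AP-1 site (TGANTCA, 7.7%) were in none of the 3 windows. No matches overlapped.

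The members were mostly short, without a strand and weakly covered. Their span had a median of 584.5 bases and ran from 201 to 63215 bases, against a median of 14083 bases for the tested named loci. A single transcript was listed for 672 members, and the largest number was 7. No strand was given for 585 members (82.6%), against 10.4% of the tested named loci, while 62 lay on the plus and 61 on the minus strand. Members with a strand had a median span of 3250 bases, against 469.0 bases for those without. The mean estimated count per library had a median of 36.7 for members and 681.8 for named loci. Mean FPKM had a median of 1.21 for members and 2.36 for named loci, so many members lay close to the rule's limit.

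The rule's limit was passed in exactly 3 libraries by 142 members and in all 9 by 168. At least 1 library of every group passed it for 543 members. Members that passed it in libraries of a single group numbered 3 for RSL3 plus Fer-1, 4 for RSL3 and 2 for DMSO. Just inside the rule, MSTRG.6238, MSTRG.10322 and MSTRG.8943 had a third-highest FPKM of 1.0007, 1.0023 and 1.0045. Just outside it, MSTRG.673, MSTRG.5111 and MSTRG.23164 had 0.9996, 0.9982 and 0.9955.

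The longest members were MSTRG.23388 (chr22:11910753-11973967), MSTRG.565 (chrX:57140500-57200165) and MSTRG.35344 (chr9:41358491-41413308). MSTRG.565 lies inside the named locus AL022157, on the opposite strand, and its counts differed widely between libraries of 1 group. It had 4878, 4799 and 3124 counts with RSL3 plus Fer-1, 4349, 4239 and 1448 with RSL3, and 4851, 926 and 5129 with DMSO. The low libraries fell in all 3 groups, and the groups overlapped. The shortest members were MSTRG.970 and MSTRG.26595, each of 201 bases, and MSTRG.17279 of 203 bases, at mean FPKMs of 1.67, 0.979 and 0.984.

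Most members lay outside named loci, and their distances to them were not set against those of random positions. An overlap with a named locus was found for 33 members (4.66%), of which 28 lay wholly inside it. Of the overlapping members, 12 lay on the opposite strand, 6 on the same strand and 15 had no strand to compare. The distance to the nearest named locus was 1 to 1000 bases for 104 members, up to 10000 bases for a further 290, up to 100000 bases for 218 and more for 63. For members without overlap the median distance was 6915 bases, with quartiles of 2305 and 23615 bases. Within 10000 bases, 191 members lay downstream of the named locus, 179 upstream, and for 24 the named locus had no strand. The farthest member was MSTRG.22259 on chr20:27295226-27295511, 1043700 bases from MIR663AHG, with a mean FPKM of 1.02.

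**Figure D1:**
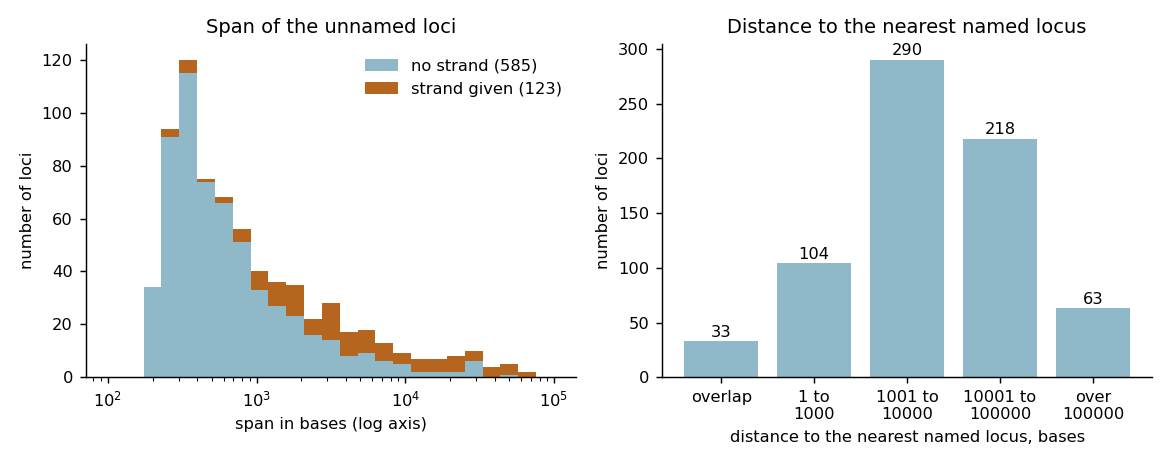
Left, span in bases (log axis) of the 708 unnamed loci, stacked by whether the table gives a strand; right, number of loci by distance in bases to the nearest named locus. Loci without a strand (585) make up most of the short ones, and the commonest distance class, above 1000 and up to 10000 bases, holds 290 loci.

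RefSeq gave an annotation to some of these stretches. A RefSeq gene overlapped 214 members (30.2%), and 494 overlapped none. The genes were long noncoding RNAs for 122 members, protein-coding genes for 64, tRNA genes for 16, transcribed pseudogenes for 10, other pseudogenes for 7 and a miRNA for 1. GENCODE 29 genes overlapped 4 members only. Neither a named locus nor a RefSeq gene overlapped 477 members.

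Members were unevenly placed. Chromosome 9 held 10.7% of members against 4.24% of tested named loci, chromosome 6 held 10.0% against 5.34%, and chromosome 4 held 9.18% against 3.71%. When members with gaps of at most 50000 bases were joined, they formed 448 chains, of which 336 had a single member. Chains of 6 or more members numbered 12 and held 110 members. The longest chain had 16 members in 83669 bases of chr4:49532537-49616205, a region beside the centromere, and its summed level was 83.7, 81.3 and 85.1 CPM (counts scaled to a common depth per library) with RSL3 plus Fer-1, 77.3, 81.2 and 79.1 CPM with RSL3, and 84.9, 81.8 and 90.9 CPM with DMSO. No member of that chain was called between RSL3 and DMSO. A chain of 8 members on chr9:41358491-41477702 held 3 called members and summed to 151.5, 144.8 and 146.0 CPM with RSL3 plus Fer-1, 143.5, 123.2 and 139.8 CPM with RSL3, and 173.1, 169.4 and 159.7 CPM with DMSO. In that sum all RSL3 libraries lay below all others, but most of it came from 1 member, MSTRG.35344. Between RSL3 and DMSO, 6.36% of all members and 16.0% of all tested loci were called. Members of a chain may be pieces of 1 transcript, and their values are then not independent.

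The highest mean FPKM was that of MSTRG.22878 on chr21:8987497-8988167, at 236.5. It lies inside the named locus MIR3648-2;CR392039, on the short arm where ribosomal RNA genes are clustered, and reads of near-identical copies could be split or shared among them. Its FPKM was 235.9, 242.5 and 252.0 with RSL3 plus Fer-1, 240.1, 221.8 and 231.6 with RSL3, and 229.5, 229.9 and 245.4 with DMSO. The groups overlapped. The log2 change was -0.01 for RSL3 against DMSO (edgeR, adjusted p = 0.896).

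The member with the most counts was MSTRG.7687 on chr11:101338949-101371943, with 7 transcripts over the long noncoding RNA LOC105369458, 79621 bases downstream of TRPC6, which codes for a cation channel. It alone held 29.3 to 31.7% of all counts in members. Its level was 1575, 1533 and 1486 CPM with RSL3 plus Fer-1, 1420, 1349 and 1485 CPM with RSL3, and 1613, 1590 and 1563 CPM with DMSO. Every RSL3 library lay below every DMSO and every RSL3 plus Fer-1 library, though RSL3 replicate 3 and RSL3 plus Fer-1 replicate 3 nearly met. The log2 change was -0.16 (SE 0.0311) for RSL3 against DMSO with an adjusted p of 0.000370, and 0.11 (SE 0.0311) for RSL3 plus Fer-1 against RSL3 with an adjusted p of 0.0291. The call of RSL3 plus Fer-1 against RSL3 was lost without RSL3 replicate 1 (adjusted p 0.0870) or 2 (0.184), and without RSL3 plus Fer-1 replicate 1 (0.174) or 2 (0.108), and with limma on log2(FPKM + 1) (0.207) or log2(FPKM + 0.1) (0.210).

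All members together took 0.497 ± 0.00836% of the counts with RSL3 plus Fer-1, 0.472 ± 0.0130% with RSL3 and 0.513 ± 0.0110% with DMSO (SD, n = 3 each). The 3 RSL3 libraries lay below the 3 DMSO libraries, a difference of -0.0412 percentage points with a two-sided exact permutation p of 0.1, the smallest that 3 against 3 libraries allow. RSL3 plus Fer-1 lay 0.0258 points above RSL3 (exact permutation p = 0.1). The difference between RSL3 plus Fer-1 and DMSO was -0.0153 points, and their libraries overlapped (exact permutation p = 0.200). Without MSTRG.7687 the shares were 0.345 ± 0.00463%, 0.331 ± 0.00728% and 0.354 ± 0.0115% for RSL3 plus Fer-1, RSL3 and DMSO (SD, n = 3 each).

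RSL3 against DMSO asks which unnamed loci changed when GPX4 was inhibited. Of the 708 members, 45 were called at an adjusted p under 0.05, 21 higher and 24 lower with RSL3. That is 6.36% of members, against 16.0% of all tested loci, 8.76% higher and 7.22% lower. Libraries of the groups did not overlap for 122 members (17.2%), against 30.2% of all tested loci. The median log2 change was -0.05 over members and -0.01 over all tested loci.

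The share called differed between count classes. Among members with a mean count of 500 or more, 21 of 50 (42.0%) were called, against 25.8% of all tested loci of that class. From 50 to under 500 counts, 14 of 233 members (6.01%) were called, against 7.30%, and under 50 counts 10 of 425 (2.35%), against 1.35%.

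**Figure D2:**
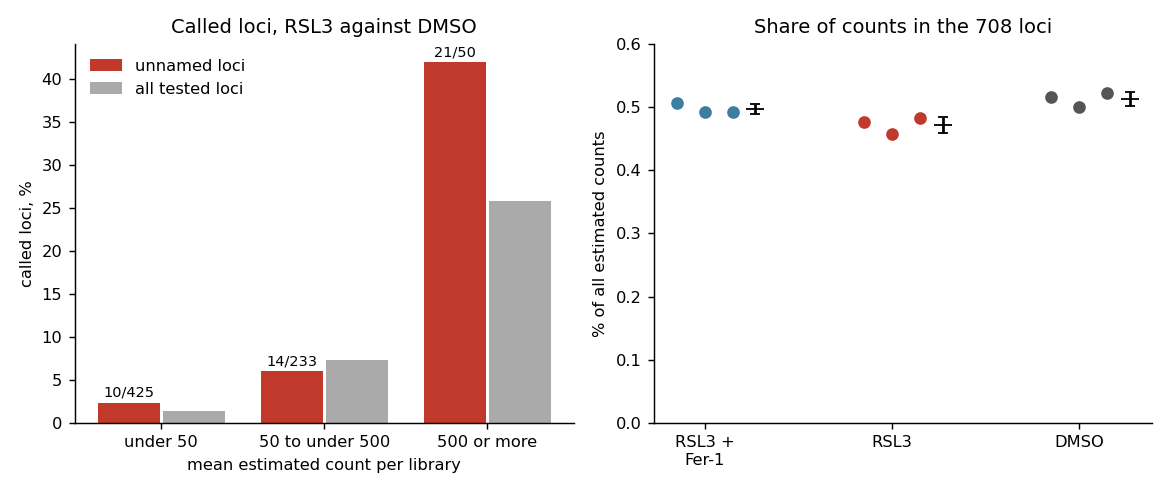
Left, percent of loci called between RSL3 and DMSO by mean estimated count per library, for unnamed loci (called and tested numbers above the bars) and all tested loci; right, share of each library's counts in the 708 loci, with points for libraries and bars for mean and SD (n = 3). In the class of 500 or more counts 21 of 50 unnamed loci were called, and the RSL3 libraries lie between 0.457 and 0.482%.

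Among members that were higher with RSL3, MSTRG.35060 had the largest change among those whose mean over the 9 libraries was over 500 counts. It spans 9728 bases without a strand (chr9:21582159-21591886), 22259 bases upstream of the locus MIR31HG;IFNE, which joins the host gene of miR-31 and the interferon gene IFNE. Its level was 22.9, 17.4 and 18.6 CPM with RSL3, against 6.90, 7.52 and 8.59 CPM with DMSO, and no library of one group reached the other. MSTRG.35060 rose 2.56-fold, a log2 change of 1.36 (SE 0.134, adjusted p = 2.51e-08). MIR31HG;IFNE itself had 203.8, 165.7 and 187.2 CPM with RSL3 and 122.0, 122.9 and 125.4 CPM with DMSO, a log2 change of 0.59 (SE 0.0584, adjusted p = 7.16e-07).

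MSTRG.20306 spans 40464 bases of the plus strand (chr2:75239211-75279674) with 2 transcripts. It overlaps the RefSeq long noncoding RNAs TACR1-AS1 and LOC107985900 and begins 39691 bases from TACR1, the receptor of substance P, on the opposite strand. Its level was 7.94, 4.92 and 5.72 CPM with RSL3, against 1.03, 1.81 and 1.84 CPM with DMSO. The lowest RSL3 library was above the highest DMSO library, and the log2 change was 1.99 (SE 0.240, adjusted p = 6.68e-07). TACR1 did not pass the filter.

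MSTRG.9678 extends over 25918 bases (chr12:104354183-104380100) from a point 3876 bases downstream of TXNRD1, the cytosolic thioredoxin reductase and a target of NRF2. It had 49.1, 52.2 and 48.1 CPM with RSL3, against 36.9, 35.7 and 37.9 CPM with DMSO, and the groups did not overlap. The edgeR log2 change was 0.44 (SE 0.0703, adjusted p = 5.03e-05), beside 0.59 for TXNRD1 (SE 0.0268, adjusted p = 5.69e-15). The call of MSTRG.9678 was lost with limma on log2(FPKM + 1) (adjusted p 0.0716) and on log2(FPKM + 0.1) (0.0652). Of a list of 27 NRF2 target genes, TXNRD1 alone was the nearest named locus of any member, for MSTRG.9678, MSTRG.9686 and MSTRG.9687. No gene of a list of 16 inflammation and early response genes was.

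MSTRG.22483, the minus-strand locus whose overlap with the LOC105372621 window is printed above (chr20:40995438-41005466), had 1.68, 1.29 and 1.03 CPM with RSL3, against 0.437, 0.420 and 0.582 CPM with DMSO. The groups did not overlap. The log2 change was 1.47 (SE 0.410, adjusted p = 0.0131), and the call was lost without RSL3 replicate 1 (adjusted p 0.0729) or DMSO replicate 2 (0.0516). MSTRG.27110, 322 bases on chr4:94295351-94295672 and 2863 bases downstream of the prostaglandin D synthase gene HPGDS, had 2.73, 2.30 and 2.71 CPM with RSL3, against 0.804, 1.04 and 1.37 CPM with DMSO. Its log2 change was 1.26 (SE 0.356, adjusted p = 0.0138), and without DMSO replicate 1 the adjusted p was 0.0720.

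Among members that were lower with RSL3, MSTRG.33277, MSTRG.21595 and MSTRG.10810 lay at or downstream of the end of a coding gene. Over all members with a side, 318 lay downstream and 309 upstream of the nearest named locus. Whether lower members favour a side was not tested. MSTRG.33277 covers 16681 bases of the minus strand (chr7:137858298-137874978) and adjoins the end of CREB3L2, a transcription factor of the endoplasmic reticulum, on the same strand with no base between them. It had 23.0, 22.5 and 24.6 CPM with RSL3, against 34.7, 35.8 and 37.8 CPM with DMSO. The groups stood well apart, and the log2 change was -0.63 (SE 0.0750, adjusted p = 6.15e-07). CREB3L2 changed by -0.21 (SE 0.0435, adjusted p = 0.00120).

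MSTRG.21595 covers 14294 bases (chr2:210682605-210696898) from 3498 bases downstream of CPS1, the mitochondrial enzyme that makes carbamoyl phosphate for the urea cycle. It had 28.4, 29.1 and 33.3 CPM with RSL3, against 46.2, 42.5 and 42.4 CPM with DMSO, without overlap. The log2 change was -0.53 (SE 0.0736, adjusted p = 6.05e-06). CPS1 had 1038, 1087 and 1155 CPM with RSL3 and 1437, 1480 and 1515 CPM with DMSO, a log2 change of -0.43 (SE 0.0357, adjusted p = 1.45e-08). For MSTRG.33277 and MSTRG.21595, a separate transcript and an extended or unfinished transcript of the neighbouring gene cannot be told apart.

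MSTRG.35176 lies on the minus strand (chr9:33520399-33524354) and overlaps the promoter window of ANKRD18B printed above, while the named row of that gene begins 40 bases away. It had 2.16, 2.00 and 3.09 CPM with RSL3, against 3.82, 4.18 and 4.10 CPM with DMSO. The groups did not overlap, and the log2 change was -0.74 (SE 0.224, adjusted p = 0.0232), beside -0.32 for ANKRD18B (adjusted p = 0.00422). The call was lost without DMSO replicate 2 (adjusted p 0.0704) or 3 (0.0612) and without RSL3 replicate 1 (0.0876) or 2 (0.104).

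MSTRG.10810 (chr13:109210646-109216507, 2641 bases downstream of MYO16, an unconventional myosin) had 7.42, 7.89 and 7.83 CPM with RSL3, against 11.3, 11.0 and 11.4 CPM with DMSO. The libraries within each group lay close together, and the log2 change was -0.54 (SE 0.131, adjusted p = 0.00419). MYO16 did not pass the filter.

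A pair of members lay inside the RefSeq gene LINGO2, a leucine-rich repeat protein of neurons, whose name is not on either row. MSTRG.35130 (chr9:29195583-29201333) had 5.16, 7.77 and 7.16 CPM with RSL3, against 11.4, 10.4 and 9.18 CPM with DMSO, and a log2 change of -0.62 (SE 0.154, adjusted p = 0.00502). MSTRG.35113 (chr9:28826999-28827456) had 0.902, 0.569 and 0.747 CPM with RSL3, against 0.161, 0.272 and 0.116 CPM with DMSO, and a log2 change of 2.00 (SE 0.588, adjusted p = 0.0186). The groups did not overlap for either, and they moved in opposite directions. The call of MSTRG.35113 was lost without DMSO replicate 1 (adjusted p 0.0682) or 3 (0.0853) or RSL3 replicate 1 (0.0669), without the filter on low values (0.0994), and with limma on log2(FPKM + 0.1) (0.0686). MSTRG.35113 reached an FPKM of 1 in the 3 RSL3 libraries only. It met the FPKM rule through the group in which it was high, so its rise is a description and the test does not support it. The call of MSTRG.35130 was lost with limma on log2(FPKM + 1) (adjusted p 0.0657) and on log2(FPKM + 0.1) (0.0663).

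MSTRG.13680 (chr16:4295022-4307708) lies on the minus strand with 2 transcripts, 7053 bases upstream of the zinc finger gene GLIS2 on the opposite strand. It had 21.2, 25.6 and 22.0 CPM with RSL3 plus Fer-1, 25.3, 26.9 and 27.5 CPM with RSL3, and 15.5, 18.0 and 18.6 CPM with DMSO. Both treated groups lay above DMSO. RSL3 against DMSO gave a log2 change of 0.61 (SE 0.0971, adjusted p = 3.78e-05), and RSL3 plus Fer-1 against DMSO gave 0.40 (SE 0.0970, adjusted p = 0.00942, with 0.0746 without DMSO replicate 1 and 0.0918 without RSL3 plus Fer-1 replicate 2, and 0.202 and 0.187 with limma on log2(FPKM + 1) and log2(FPKM + 0.1)). GLIS2 had a log2 change of -0.22 between RSL3 and DMSO, which was not called (adjusted p = 0.214).

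In the chain on chr9:41358491-41477702, the long plus-strand member MSTRG.35344 overlaps LOC107984035 and had 135.1, 125.2 and 128.3 CPM with RSL3 plus Fer-1, 128.1, 109.5 and 126.8 CPM with RSL3, and 155.0, 150.8 and 138.5 CPM with DMSO. DMSO libraries were above all others. RSL3 against DMSO gave -0.29 on the log2 scale (SE 0.0558, adjusted p = 0.000779). RSL3 plus Fer-1 against DMSO gave -0.19 (SE 0.0556, adjusted p = 0.0383), a call that was lost without DMSO replicate 1 or 2 (adjusted p 0.164 each) or RSL3 plus Fer-1 replicate 2 (0.184) or 3 (0.160). With limma on log2(FPKM + 1) and log2(FPKM + 0.1) the adjusted p was 0.0777 and 0.0785 for RSL3, and 0.324 and 0.330 for RSL3 plus Fer-1, so both calls were lost.

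The largest rise, 2.65 on the log2 scale, was that of MSTRG.7663 on chr11:95439519-95439792. It had 0.551, 0.124 and 0.258 CPM with RSL3, against 0.0919, 0.0247 and 0.0233 CPM with DMSO (SE 0.823, adjusted p = 0.0268). The adjusted p was 0.183 without RSL3 replicate 1, 0.104 without DMSO replicate 2, 0.103 without DMSO replicate 3, 0.162 without the filter on low values, and 0.163 and 0.131 with limma on log2(FPKM + 1) and log2(FPKM + 0.1). At its DMSO levels, MSTRG.7663 met the FPKM rule through libraries that received RSL3, with or without Fer-1. Its level was higher there, so its rise is a description and the test does not support it. The largest fall was that of MSTRG.27396 on chr4:133342702-133343207, which had 0.125, 0.0742 and 0.232 CPM with RSL3, against 0.644, 1.29 and 0.466 CPM with DMSO. Its log2 change was -2.45 (SE 0.638, adjusted p = 0.00772), and the adjusted p was 0.0747 without DMSO replicate 2, and 0.0772 and 0.0612 with those limma alternatives. Fitted changes of such low loci depend on the prior count of the fit.

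**Figure D3:**
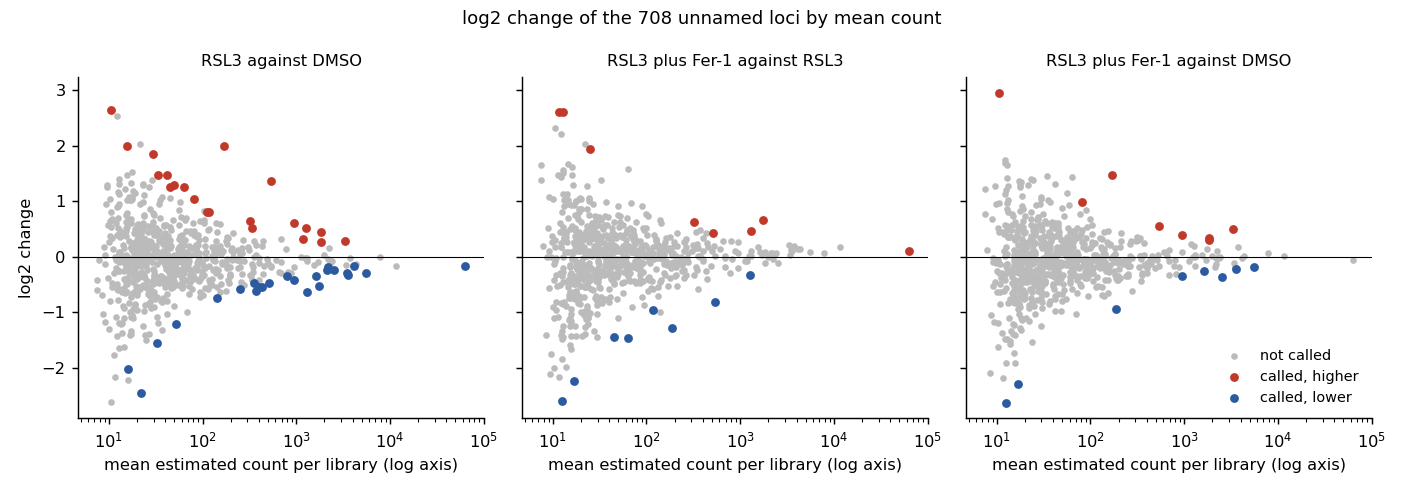
log2 change of the 708 unnamed loci against mean estimated count per library (log axis) in the 3 comparisons, with called loci coloured by direction. Changes beyond 1 on the log2 scale lie mostly at low counts, and between RSL3 and DMSO 21 loci were called higher and 24 lower.

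RSL3 plus Fer-1 against RSL3 asks which unnamed loci differed when Fer-1 was added to RSL3. Of the 708 members, 16 were called, 8 higher and 8 lower with RSL3 plus Fer-1. That is 2.26%, against 6.23% of all tested loci (2.37% higher and 3.86% lower). Libraries did not overlap for 107 members (15.1%), against 22.4% of all tested loci. The median log2 change was 0.03 over members and 0.00 over all tested loci. Without RSL3 plus Fer-1 replicate 1, 9 members were called, and without replicate 2 of that group 10. Calls over all tested loci fell there too, from 1122 to 817 and 745. RSL3 libraries enter this comparison and the previous one, so values of both are set side by side below and were not counted as separate evidence.

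MSTRG.21595, downstream of CPS1, had 45.2, 49.6 and 49.2 CPM with RSL3 plus Fer-1, against 28.4, 29.1 and 33.3 CPM with RSL3. The groups did not overlap, and the log2 change was 0.66 (SE 0.0735, adjusted p = 4.76e-07). CPS1 changed by 0.52 (adjusted p = 3.37e-09). MSTRG.33277, past the end of CREB3L2, had 32.7, 31.6 and 32.7 CPM with RSL3 plus Fer-1, against 23.0, 22.5 and 24.6 CPM with RSL3. Its log2 change was 0.47 (SE 0.0750, adjusted p = 0.000121), beside 0.14 for CREB3L2 (adjusted p = 0.0475). Against DMSO, neither MSTRG.21595 (log2 change 0.14, adjusted p = 0.353) nor MSTRG.33277 (log2 change -0.16, adjusted p = 0.256) was called with RSL3 plus Fer-1.

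MSTRG.35060, upstream of MIR31HG;IFNE, had 9.77, 12.0 and 11.9 CPM with RSL3 plus Fer-1, against 17.4 CPM or more in each RSL3 library. Its log2 change was -0.81 (SE 0.131, adjusted p = 0.000145), and that of MIR31HG;IFNE was -0.37 (adjusted p = 0.000398). With limma the call of MSTRG.35060 against RSL3 was lost (adjusted p 0.0882 on log2(FPKM + 1) and 0.111 on log2(FPKM + 0.1)). Against DMSO, MSTRG.35060 was also called higher with RSL3 plus Fer-1. The edgeR log2 change was 0.48 to 0.64 without a library, and the range over all alternatives was 0.24 to 0.64. The wider range includes limma on log2(FPKM + 1) and log2(FPKM + 0.1), whose changes are not the same measure. That call was lost without DMSO replicate 1 (adjusted p 0.0650) or RSL3 plus Fer-1 replicate 2 (0.0587) or 3 (0.0584). It was lost with both limma alternatives too (up to 0.362). MSTRG.23309, 19658 bases on chr21:45018883-45038540 and 356 bases from the locus LINC00163;PICSAR;LINC00165, had 26.8, 31.1 and 28.6 CPM with RSL3 plus Fer-1, 35.3, 37.3 and 35.8 CPM with RSL3, and 26.2, 22.9 and 26.6 CPM with DMSO. The RSL3 libraries were above all others. The edgeR log2 change was -0.33 for RSL3 plus Fer-1 against RSL3 (SE 0.0806, adjusted p = 0.0114) and 0.52 for RSL3 against DMSO (SE 0.0811, adjusted p = 3.08e-05). The call for RSL3 plus Fer-1 against RSL3 was lost without RSL3 replicate 2 (adjusted p 0.0557) or RSL3 plus Fer-1 replicate 1 (0.0822), and with both limma alternatives (0.305 and 0.312). That for RSL3 against DMSO was lost with both (0.0601 and 0.0578).

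MSTRG.25777 (chr3:156720670-156723797, 5742 bases upstream of the pseudogene METTL15P1) had 2.50, 2.46 and 2.59 CPM with RSL3 plus Fer-1, 6.57, 4.33 and 7.42 CPM with RSL3, and 3.93, 5.19 and 5.47 CPM with DMSO. The RSL3 plus Fer-1 libraries were below both other groups, which overlapped each other. The log2 change was -1.28 against RSL3 (SE 0.213, adjusted p = 0.000201) and -0.95 against DMSO (SE 0.214, adjusted p = 0.00520). The call against DMSO was lost with limma on log2(FPKM + 1) (adjusted p 0.140) and log2(FPKM + 0.1) (0.104). METTL15P1 changed by -1.14 against RSL3 (adjusted p = 0.00442).

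MSTRG.23338 (chr21:46450517-46457199), on the minus strand over LOC124905046 and 1692 bases upstream of DIP2A on the opposite strand, had 9.79, 9.52 and 8.37 CPM with RSL3 plus Fer-1, against 7.62, 5.20 and 5.26 CPM with RSL3. The groups did not overlap. Its log2 change was 0.62 (SE 0.160, adjusted p = 0.0170), beside -0.03 for DIP2A (adjusted p = 0.890). The call was lost without RSL3 replicate 2 (adjusted p 0.0960) or 3 (0.0843) or RSL3 plus Fer-1 replicate 1 (0.0815) or 2 (0.0716), and with both limma alternatives (0.0993 and 0.103).

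**Figure D4:**
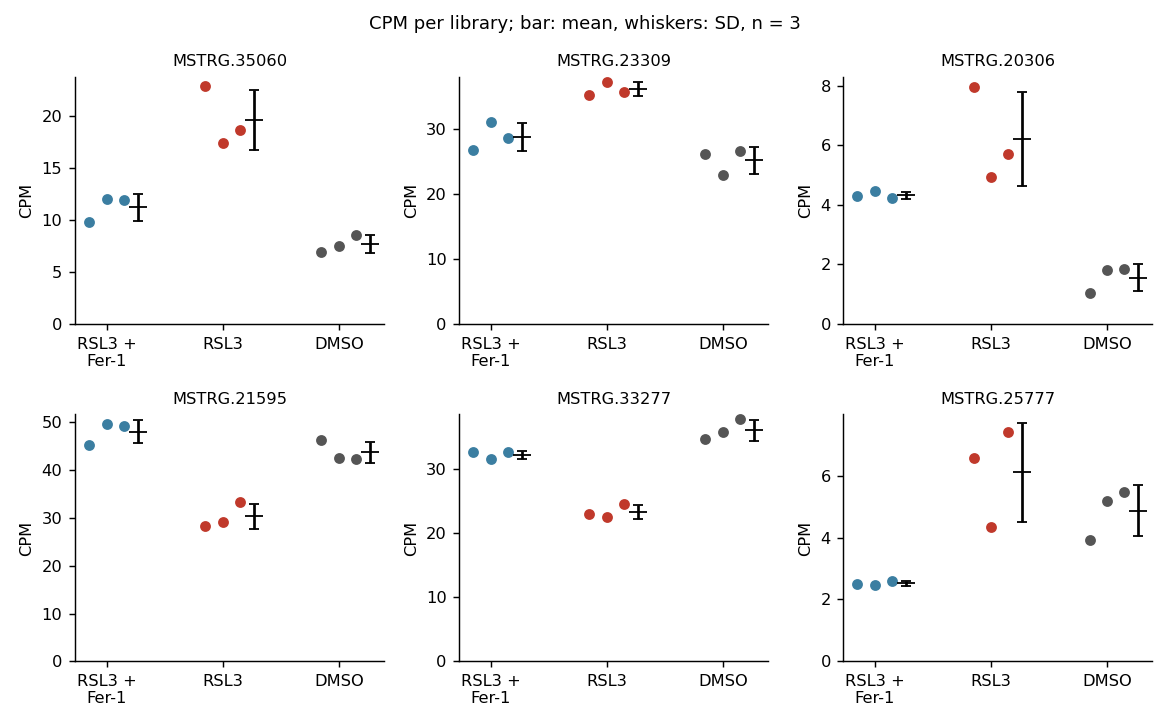
CPM of 6 unnamed loci in each library with RSL3 plus Fer-1, RSL3 and DMSO, with bars for mean and SD (n = 3) and axes that start at 0. MSTRG.21595 and MSTRG.33277 are lowest in the RSL3 libraries, MSTRG.35060 and MSTRG.23309 are highest in them, and MSTRG.25777 is lowest with RSL3 plus Fer-1.

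The short members MSTRG.27110 and MSTRG.26119 were also called lower. MSTRG.27110 had 1.01, 0.509 and 1.27 CPM with RSL3 plus Fer-1, against 2.73, 2.30 and 2.71 CPM with RSL3 (log2 change -1.47, SE 0.358, adjusted p = 0.0104, and 0.0760 without RSL3 plus Fer-1 replicate 2). MSTRG.26119 (chr3:187468354-187468611) had 2.27, 1.71 and 2.29 CPM, against 5.04, 4.03 and 3.14 CPM with RSL3 (log2 change -0.96, SE 0.252, adjusted p = 0.0174). Its adjusted p was 0.142 without RSL3 replicate 1 and 0.101 without RSL3 plus Fer-1 replicate 2. Groups did not overlap for either member.

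The largest rises were those of MSTRG.33378 (chr7:148932122-148932414) and MSTRG.32439 (chr7:66901116-66901372), each a log2 change of 2.61. MSTRG.33378 had 0.573, 0.266 and 0.440 CPM with RSL3 plus Fer-1, against 0.0752, 0.0742 and 0.0515 CPM with RSL3 (SE 0.747, adjusted p = 0.0332). Its call was lost without any of the libraries of the comparison (adjusted p 0.0767 to 0.130) except RSL3 plus Fer-1 replicate 2 (0.0372). It was also lost without the filter on low values (0.207) and with limma on log2(FPKM + 1) (0.172) and log2(FPKM + 0.1) (0.149). At its RSL3 levels, MSTRG.33378 met the FPKM rule through libraries of other groups. Its rise is therefore a description that the test does not support. MSTRG.32439 (SE 0.790, adjusted p = 0.0468) had 0.665, 0.709 and 0.352 CPM with RSL3 plus Fer-1, against 0.0251, 0.247 and 0 CPM with RSL3. The 0 allows up to 3 counts, or 0.0773 CPM, for counting error only, and the call was lost without any of the libraries of the comparison (adjusted p 0.0507 to 0.193) except RSL3 replicate 2, without which the adjusted p was 0.00320. It was also lost without the filter on low values (0.192), with only the 2 groups compared in the fit (0.0631), and with limma on log2(FPKM + 1) (0.0643) and log2(FPKM + 0.1) (0.113). MSTRG.32439 reached an FPKM of 1 in the 3 RSL3 plus Fer-1 libraries only. It met the FPKM rule through the group in which it was high, so its rise is a description and the test does not support it.

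RSL3 plus Fer-1 against DMSO asks which unnamed loci differed from vehicle when both compounds were present. Of the 708 members, 16 were called, 8 higher and 8 lower, or 2.26%, against 6.47% of all tested loci (3.89% higher and 2.58% lower). Libraries did not overlap for 110 members (15.5%), against 23.0%. The median log2 change was -0.05 over members and -0.00 over all tested loci. Calls numbered 10 without DMSO replicate 2, 8 without RSL3 plus Fer-1 replicate 2 and 10 without replicate 3 of that group. Calls over all tested loci fell there too, from 1165 to 772, 757 and 711.

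MSTRG.20306 over TACR1-AS1 had 4.31, 4.45 and 4.22 CPM with RSL3 plus Fer-1, against 1.03, 1.81 and 1.84 CPM with DMSO. The groups stood apart, and the log2 change was 1.47 (SE 0.239, adjusted p = 0.000151). Against RSL3, its change of -0.52 was not called (adjusted p = 0.213). MSTRG.52 (chrX:4540518-4545977, a stretch 81223 bases from the nearest named locus) had 87.1, 84.5 and 101.5 CPM with RSL3 plus Fer-1, 82.3, 78.6 and 74.7 CPM with RSL3, and 61.4, 59.0 and 72.3 CPM with DMSO. Both treated groups lay above DMSO, with log2 changes of 0.50 for RSL3 plus Fer-1 (SE 0.0787, adjusted p = 0.000592) and 0.29 for RSL3 (SE 0.0788, adjusted p = 0.0180). The call for RSL3 against DMSO was lost without DMSO replicate 1 (adjusted p 0.0850) or 2 (0.0803) or RSL3 replicate 1 (0.0885) or 2 (0.0686), and with limma on log2(FPKM + 1) (0.0773) or log2(FPKM + 0.1) (0.0765).

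MSTRG.16968, a minus-strand locus over LOC124904070 and 7648 bases upstream of the Polycomb gene CBX2, which lies on the opposite strand (chr17:79753134-79770500), had 46.2, 50.1 and 46.6 CPM with RSL3 plus Fer-1, against 38.3, 37.2 and 37.5 CPM with DMSO. The groups did not overlap, and the log2 change was 0.34 (SE 0.0653, adjusted p = 0.00109), while CBX2, at 0.11, was not called (adjusted p = 0.490). With RSL3 alone, MSTRG.16968 was also called higher than with DMSO. Its edgeR log2 change was 0.22 to 0.29 without a library, and 0.21 to 0.29 over all alternatives, with limma among them. All of the alternatives kept that call. MSTRG.9678, past TXNRD1, had 50.4, 44.7 and 42.2 CPM with RSL3 plus Fer-1, against 36.9, 35.7 and 37.9 CPM with DMSO (log2 change 0.31, SE 0.0702, adjusted p = 0.00496, and 0.0515 without RSL3 plus Fer-1 replicate 1). MSTRG.12615 (chr15:56030332-56062086) had 56.4, 52.4 and 49.9 CPM with RSL3 plus Fer-1, against 62.9, 74.0 and 67.5 CPM with DMSO, without overlap, and a log2 change of -0.37 (SE 0.0647, adjusted p = 0.000444). With limma on log2(FPKM + 1) and log2(FPKM + 0.1), the calls of MSTRG.12615 (adjusted p 0.143 and 0.140) and MSTRG.9678 (0.303 and 0.280) were lost. MSTRG.12615 was also called lower with RSL3 alone than with DMSO. The edgeR log2 change was -0.30 to -0.18 without a library, and -0.30 to -0.16 over all alternatives, with limma among them. That call was lost without DMSO replicate 2 (adjusted p 0.0925) or RSL3 replicate 1 (0.0548), and with both limma alternatives (up to 0.210).

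MSTRG.25774 lies inside the named locus GMPS;AC104472 on the same strand (chr3:155964918-155978013); GMPS makes guanosine monophosphate. It had 19.6, 21.3 and 22.2 CPM with RSL3 plus Fer-1, 19.7, 19.0 and 21.9 CPM with RSL3, and 26.6, 25.0 and 28.8 CPM with DMSO, with all DMSO libraries highest. The changes against DMSO were -0.35 on the log2 scale for RSL3 plus Fer-1 (SE 0.0915, adjusted p = 0.0181) and -0.41 for RSL3 (SE 0.0920, adjusted p = 0.00215), while GMPS;AC104472 was not called for RSL3 plus Fer-1 (adjusted p = 0.730) or RSL3 (adjusted p = 0.122). The call for RSL3 plus Fer-1 was lost without DMSO replicate 1 (adjusted p 0.0518) or 3 (0.111) or RSL3 plus Fer-1 replicate 1 (0.0930) or 2 (0.0586). With limma on log2(FPKM + 1) and log2(FPKM + 0.1) both calls were lost, with adjusted p of 0.193 and 0.195 for RSL3 plus Fer-1, and 0.0693 and 0.0681 for RSL3.

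Members beside a changed gene were examined over all comparisons. The nearest named locus passed the filter for 445 members. Between RSL3 and DMSO, 25 of these members were called, the nearest named locus was called too for 11 of them (44.0%), and the directions were the same in all 11. For members that were not called, the nearest named locus was called in 27.6%. Between RSL3 plus Fer-1 and RSL3 the nearest locus was called for 5 of 8 called members, and between RSL3 plus Fer-1 and DMSO for 2 of 9, each in the same direction, against 8.92% and 8.49% for members that were not called. Over the 34 members with a mean count of 500 or more and a tested neighbour, the log2 change of the member and of its neighbour for RSL3 against DMSO had a Pearson r of 0.60 and a Spearman rho of 0.55. Over all 445 members these were 0.23 and 0.26, and over the 306 members that overlapped their neighbour or lay within 10000 bases of a named locus 0.16 and 0.20. For RSL3 plus Fer-1 against RSL3, r and rho were 0.43 and 0.31 over the 34 members and 0.14 and 0.15 over all 445. For RSL3 plus Fer-1 against DMSO they were 0.16 and 0.20 over the 34 and 0.06 and 0.10 over all 445. The points share libraries, and some share a neighbour, so these values are descriptions without a test.

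**Figure D5:**
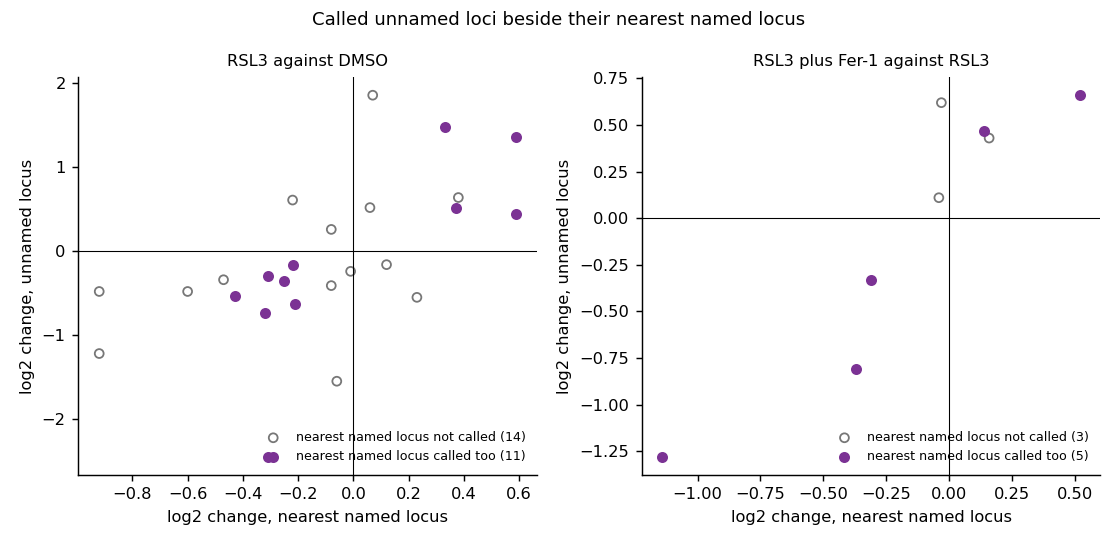
log2 change of called unnamed loci (vertical) against that of their nearest named locus (horizontal), for RSL3 against DMSO and RSL3 plus Fer-1 against RSL3. Loci whose nearest named locus was not tested are left out, and points are filled where the named locus was called too. The 11 filled points on the left and the 5 on the right all lie in the quadrants of equal sign.

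The 16 members over RefSeq tRNA genes form a class of their own by position. They overlapped 19 tRNA genes, most of the members without containing the whole gene. On chromosome 6 lay 9 of the members and on chromosome 14 lay 4, and 14 members had an end within 10 bases of an end of the tRNA gene. Of the 15 that overlapped a single tRNA gene, the spans ran from 203 to 544 bases. Mean FPKM ran from 0.736 to 57.1 with a median of 1.86. The highest was MSTRG.30144 (chr6:27230401-27230636) over the leucine tRNA gene TRL-TAA4-1, which had an FPKM of 53.8, 51.1 and 63.3 with RSL3 plus Fer-1, 63.2, 66.7 and 61.5 with RSL3, and 48.9, 44.1 and 61.4 with DMSO. Its RSL3 libraries were above the DMSO libraries, the lowest of them only just above the highest of DMSO, and the log2 change of 0.32 was not called (adjusted p = 0.0774).

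Of these 16 members 1 was called between RSL3 and DMSO, against 6.36% of all members and 16.0% of all tested loci. The same member alone was called between RSL3 plus Fer-1 and DMSO, against 2.26% and 6.47%. Between RSL3 plus Fer-1 and RSL3, 0 were called. MSTRG.30153 (chr6:27791216-27791418), over the glutamine tRNA gene TRQ-CTG6-1, had 2.27, 2.64 and 1.96 CPM with RSL3 plus Fer-1, 2.63, 2.57 and 1.96 CPM with RSL3, and 1.54, 0.915 and 1.0 CPM with DMSO. Both treated groups lay above DMSO and overlapped each other. The log2 change was 1.05 for RSL3 against DMSO (SE 0.302, adjusted p = 0.0165) and 0.99 for RSL3 plus Fer-1 against DMSO (SE 0.302, adjusted p = 0.0483). The call for RSL3 against DMSO was lost without DMSO replicate 2 (adjusted p 0.0799) or 3 (0.0640) or RSL3 replicate 1 (0.0608) or 2 (0.0550). That for RSL3 plus Fer-1 against DMSO was lost without any library of that comparison (adjusted p 0.0699 to 0.193) except DMSO replicate 1 (0.0297), without the filter on low values (0.0785), and with only the 2 groups compared in the fit (0.0634). Over the 16 members the median log2 change was 0.04 for RSL3 against DMSO, with 8 above 0 and 8 below. It was -0.12 for RSL3 plus Fer-1 against RSL3 and 0.03 for RSL3 plus Fer-1 against DMSO. Transfer RNA genes have near-identical copies, so the reads may be shared among them, and these values do not measure mature tRNA.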

How the data were processed

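The deposited table gives, per the file headers, an estimated count and an FPKM per locus and library in the 9 libraries. The authors scaled FPKM for transcript length and depth, per the file headers, and counts carry no such scaling. Per the submitters' processing notes, cutadapt 1.9 trimmed the reads, FastQC was used, and the build is GRCh38. Which aligner, assembler, counter and strand protocol were used is not given in the sources used here. Coordinates are those of the table. Of 9598 Ensembl loci found in GENCODE 29, 68.8% had identical ends there, and RefSeq genes and sequences are of GRCh38.p14.

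Deposited counts, whose values are whole numbers, were tested with edgeR 4.0.16 in R 4.3.3. One robust quasi-likelihood model covered 9 libraries and all 18005 loci whose FPKM reached 1 in 3 or more libraries. Library sizes and TMM factors came from the named loci. Benjamini-Hochberg adjustment ran over all loci, and a locus was called under 0.05. CPM is scaled by these sizes, and the SE was derived from the F statistic. The test was run on counts simulated from the mean levels of these data and the spread that edgeR estimated. Such counts follow the model by construction, so this run cannot show how well the model holds for the deposited counts. DESeq2 1.42.0 and limma 3.58.1 on log2(FPKM + 1) or log2(FPKM + 0.1) were alternatives. A count of 0 allows 3 counts, or 0.0659 to 0.0773 CPM.

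The list of members to be named held the called loci without overlap between groups with the 10 largest rises and falls per comparison, the 10 highest FPKMs, the 3 longest, the 3 shortest, those at the rule's limit and the farthest. The text describes only a part of this list. Absence of overlap was a condition for the rises and falls on it, so it is no separate support for them. Members and lists were chosen with earlier results of these data known.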

Additional observations from a re-analysis of the deposited data

How the results depend on the processing

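No log2 change of a called member on the list of members to be named changed sign under any alternative run. Most of these members were listed because they were called with groups that did not overlap. A change of sign was therefore unlikely from the start, and its absence is no separate support. Between RSL3 and DMSO the 45 calls became 24 (14 higher, 10 lower) and 23 (12 higher, 11 lower) with limma on log2(FPKM + 1) and log2(FPKM + 0.1). Calls over all tested loci fell there from 2878 to 2029 and 2008. Of the 168 members at an FPKM of 1 or more in all 9 libraries, 25 were called (14.9%, against 6.36% of all members). Of the 95 members at 2 or more in 3 or more libraries, 12 were called. Between RSL3 plus Fer-1 and RSL3 the 16 calls became 8 (5 higher, 3 lower) and 7 (4 higher, 3 lower) with limma, and 10 without the filter on low values. The 1122 calls over all loci became 554 and 533 with limma, and 1062 without that filter. In the stricter sets of 168 and 95 members there were 5 and 4 calls. Between RSL3 plus Fer-1 and DMSO the 16 (8 higher, 8 lower) became 5 and 6 with limma, all higher and 0 lower, and 10 and 5 in the stricter sets. The 1165 calls over all loci became 495 and 496 with limma. DESeq2 gave 44, 17 and 17 calls in the 3 comparisons, and 3281, 1438 and 1531 over all loci. The cause was not tested, and the stricter sets hold fewer loci. Leaving out a library gave 32 to 43, 9 to 13 and 8 to 14 calls, fewer samples being at hand. Over all loci it gave 2167 to 2540, 745 to 993 and 711 to 1036 calls. Share differences kept their direction, at -0.0473 to -0.0338, 0.0184 to 0.0308 and -0.0215 to -0.0108 percentage points without a library.

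The list of members to be named held 34, 16 and 16 that were called in these comparisons, not all of them described above. Of these, 8, 3 and 3 stayed called under every alternative that gave an adjusted p. With replicate number as a block the calls were 45, 16 and 17, and over all loci 2828, 1069 and 1147. Deviations of same-numbered libraries correlated at -0.08 to 0.06, and those of other pairs at -0.07 to 0.06. No shared variation by number was seen, but whether same-numbered libraries were prepared together is not labelled and cannot be told from this. The median distance to a named locus was 6223 bases, and 9202 bases to a named locus that passed the filter. Of the members, 425 averaged under 50 counts per library.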
